A study of Mus musculus with 3 samples.

Results

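The genes described here are the constant-region genes of the mouse antibody chains and the J chain gene: Ighm, Ighd, Ighg3, Ighg1, Ighg2b, Ighg2c and Igha of the heavy chain, Igkc of the kappa light chain, and Jchain. They are 9 of the 31053 features in the deposited count matrices, chosen by symbol, and all 9 were present. They were followed in 3 kinds of cell: B cells, taken as cells whose Cd79a, Cd79b and Ms4a1 transcripts summed to at least 4 UMIs (unique molecular identifiers, each a tag for 1 captured RNA molecule); cells with at least 5 Jchain UMIs, the rule set for plasma cells; and all remaining cells, where immunoglobulin RNA is taken by the rule as free RNA, that is, RNA released by other cells.

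The study profiled stromal and vascular cells of mouse inguinal (subcutaneous) fat by droplet single-cell RNA sequencing of transcript 3' ends. One library came from each of 3 genotypes: a floxed Tert gene on both chromosomes with Pdgfra-Cre (TERT fl/fl), the same floxed gene with Pdgfrb-Cre (TERT fl/fl), and Tert wild type (TERT +/+). Tert encodes the catalytic protein of telomerase, and the series title places the knockout in mesenchymal progenitors. Both promoters that drive Cre are known for stromal and perivascular cells. The labels give no age, sex, strain or number of animals behind a library, nor whether the lymph node of the inguinal fat pad was taken out, and the wild-type library carries "PBS" in its title without further explanation. With 1 library per genotype there is no replicate, so no test between genotypes was possible. Genotype, animal and library cannot be told apart. All intervals below are exact 95% intervals (Poisson for a level, Clopper-Pearson for a share, conditional binomial for a ratio) and cover counting error only.

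Antibody genes are assembled in developing B cells, which first use the mu and delta constant regions together and later may exchange them for a downstream gamma, epsilon or alpha gene, a process called class switching. Plasma cells are the end stage of the lineage and devote much of their RNA to the chains they secrete. The J chain links IgM into pentamers and IgA into dimers. Adipose tissue holds its own lymph nodes and B cells of several kinds, among them innate-like B-1 cells that make natural IgM.

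The heavy chain genes lie on the minus strand of chromosome 12 (build GRCm38), in the order Ighm (113418558 to 113422730), Ighd (113406604 to 113416324), Ighg3 (113356224 to 113361232), Ighg1 (113325240 to 113330523), Ighg2b (113302965 to 113307933), Ighg2c (113285325 to 113288932) and Igha (113254830 to 113260236). Igkc lies on the plus strand of chromosome 6 (70726435 to 70726966), and Jchain on the minus strand of chromosome 5 (88519809 to 88527891). These coordinates are those of the GENCODE M21 annotation, in which 30934 of the 31053 feature IDs (99.62%) were found. The ends of the secreted heavy chains are shown because they separate the members by their need for the J chain, and because they show how alike the gamma genes are. Each line holds the last 60 coding bases before the stop codon of the secreted form, 5′ to 3′ on the coding strand, with the cysteine codon that is the penultimate codon of mu and alpha in capitals; that cysteine forms the bond to the J chain or the next subunit.
Ighm, chr12:113420870-113420929: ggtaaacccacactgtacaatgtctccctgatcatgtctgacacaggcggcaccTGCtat
Igha, chr12:113258771-113258830: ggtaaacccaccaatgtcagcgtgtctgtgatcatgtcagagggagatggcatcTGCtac
Ighg1, chr12:113328979-113329038: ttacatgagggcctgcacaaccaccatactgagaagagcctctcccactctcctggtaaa
Ighg2b, chr12:113306392-113306451: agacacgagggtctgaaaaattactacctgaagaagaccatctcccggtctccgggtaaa
Ighg2c, chr12:113287392-113287451: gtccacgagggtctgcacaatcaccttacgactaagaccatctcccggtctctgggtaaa
Ighg3, chr12:113359668-113359727: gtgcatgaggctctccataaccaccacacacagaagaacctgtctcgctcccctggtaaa
None of the 4 gamma sequences has a cysteine codon at that place. The longest run of identical bases between the secreted transcripts was 78 bases for Ighg2b with Ighg2c, 41 bases for Ighg2b with Ighg3 and for Ighg2c with Ighg3, and 37 bases for Ighg1 with Ighg2b. Ighm and Igha shared no run longer than 12 bases. Reads that fall inside the long shared run fit both Ighg2b and Ighg2c, so a few UMIs of one of these genes in a cell rich in the other are uncertain.

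After filtering, 1409 cells remained in the Pdgfra-Cre library, 3903 in the Pdgfrb-Cre library and 2668 in the wild-type library, with median depths of 7506 in Pdgfra-Cre, 5690 in Pdgfrb-Cre and 3322 in wild type (UMIs per cell). Tert itself was near the limit of detection, with 7 UMIs in the Pdgfra-Cre library, 10 in the Pdgfrb-Cre library and 14 in the wild-type library, too few to check the labels. B cells made up 1.85% of Pdgfra-Cre cells (26 cells, interval 1.21 to 2.69%), 22.5% of Pdgfrb-Cre cells (878 cells, 21.2 to 23.8%) and 24.2% of wild-type cells (646 cells, 22.6 to 25.9%). The Jchain rule took 2 Pdgfra-Cre cells (0.142%), 43 Pdgfrb-Cre cells (1.10%) and 35 wild-type cells (1.31%), leaving 1381 other cells in Pdgfra-Cre, 2982 other cells in Pdgfrb-Cre and 1987 other cells in wild type. Cell barcodes shared with another library numbered 3 in Pdgfra-Cre, 8 in Pdgfrb-Cre and 3 in wild type, and none was a cell of the Jchain rule. Just outside the Jchain rule, with 3 or 4 UMIs, were 0 cells in Pdgfra-Cre, 3 cells in Pdgfrb-Cre and 8 cells in wild type, and just inside it, with 5 or 6, were 0 in Pdgfra-Cre, 3 in Pdgfrb-Cre and 3 in wild type. A B marker sum of 3, just outside the B cell rule, was found in 1 Pdgfra-Cre, 48 Pdgfrb-Cre and 46 wild-type cells, and a sum of 4 in 1 Pdgfra-Cre, 73 Pdgfrb-Cre and 29 wild-type cells.

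Some cells stood apart from their labels or libraries, which bears on what follows. In the Pdgfra-Cre library, 15 cells carried at least 3 UMIs of Xist, the RNA of the inactive X chromosome, and no UMI of 4 Y-linked genes, although 66.5% of all cells in that library had a Y-linked UMI. These 15 cells were 13 of the 26 B cells and both cells of the Jchain rule, and 0 of the 1381 other cells. No such cell was present in the other libraries. Values for Pdgfra-Cre B cells are therefore also given by this division, and how these cells came to the library was not tested.

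The Jchain rule did not pick 1 kind of cell. Sdc1, which encodes the plasma cell surface proteoglycan CD138, had a UMI in 81.4% of the 43 rule cells of the Pdgfrb-Cre library, against 5.71% of the 35 rule cells of the wild-type library. Mzb1, a chaperone of antibody assembly, had one in 100% of Pdgfrb-Cre and 97.1% of wild-type rule cells. The cells are accordingly called Jchain-rule cells below and not plasma cells. Among cells of the B cell rule, Pax5, a transcription factor of B cell identity, had a UMI in 69.2% of Pdgfra-Cre, 55.4% of Pdgfrb-Cre and 61.1% of wild-type cells, and the T cell gene Cd3e in 0% in Pdgfra-Cre, 0.8% in Pdgfrb-Cre and 2.8% in wild type. Dcn, a stromal collagen-binding proteoglycan, had a UMI in 30.8% of Pdgfra-Cre, 7.1% of Pdgfrb-Cre and 4.8% of wild-type B cells.

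Levels are given as CPM (counts per 1000000), the UMIs of a gene in that number of UMIs summed over the cells of a group. With 3' tags, 1 molecule gives 1 tag whatever its length, but capture can differ between genes, so levels are compared between libraries or cells and not between genes. Members are called higher or lower when the ratio to wild type passed 2-fold after 10 CPM was added to both values, over genes with at least 10 CPM in either library.

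The mu and delta genes are transcribed together as 1 long RNA that is spliced to either constant region, and both chains sit in the receptor of mature naive B cells. Ighm was present in nearly every B cell of all 3 libraries. Its level was 2921 CPM (2697 to 3160) in Pdgfra-Cre, 1339 CPM (1301 to 1378) in Pdgfrb-Cre and 1596 CPM (1549 to 1645) in wild-type B cells, so neither Cre library differed from wild type by 2-fold. The ratio to wild type was 1.83 (1.68 to 1.99) in Pdgfra-Cre B cells. Ighm had a UMI in 100% of Pdgfra-Cre, 94.3% of Pdgfrb-Cre and 95% of wild-type B cells, and its median per B cell was 16.5 UMIs in Pdgfra-Cre, 4 UMIs in Pdgfrb-Cre and 6 UMIs in wild type.

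Ighd differed in level among the B cells of the 3 libraries. Its level was 60.8 CPM (32.4 to 104) in Pdgfra-Cre, 462 CPM (439 to 485) in Pdgfrb-Cre and 1017 CPM (980 to 1056) in wild-type B cells. It was 16.7-fold lower in Pdgfra-Cre than in wild-type B cells (9.77 to 31.5, log2 ratio −3.86) and in Pdgfrb-Cre B cells it was 2.20-fold lower (2.07 to 2.35, log2 ratio −1.12). The B cells of both Cre libraries thus had a lower delta level than those of the wild-type library. The interval of neither ratio reached 1, but with 1 library per genotype it covers counting error only.

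The same order was seen cell by cell. An Ighd UMI was found in 26.9% of Pdgfra-Cre B cells (11.6 to 47.8%), 73.2% of Pdgfrb-Cre B cells (70.2 to 76.1%) and 89.9% of wild-type B cells (87.4 to 92.1%), with a median per cell of 0 UMIs in Pdgfra-Cre, 1 UMIs in Pdgfrb-Cre and 4 UMIs in wild type. Pdgfra-Cre B cells had the deepest median (5602.5 UMIs, against 3407 in Pdgfrb-Cre and 3716.5 in wild-type B cells). After each cell was thinned to 1000 UMIs the shares were 3.85% in Pdgfra-Cre, 35.7% in Pdgfrb-Cre and 59.7% in wild type. Per 100 Ighm UMIs there were 2.08 Ighd UMIs in Pdgfra-Cre, 34.5 in Pdgfrb-Cre and 63.7 in wild-type B cells. Ighd outnumbered Ighm in 0 Pdgfra-Cre, 116 Pdgfrb-Cre and 158 wild-type B cells, and Ighm was found without Ighd in 19 Pdgfra-Cre, 208 Pdgfrb-Cre and 47 wild-type B cells. High Ighm with little Ighd was thus the common state among the few Pdgfra-Cre B cells and the rarer one in wild type.

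**Figure D1:**
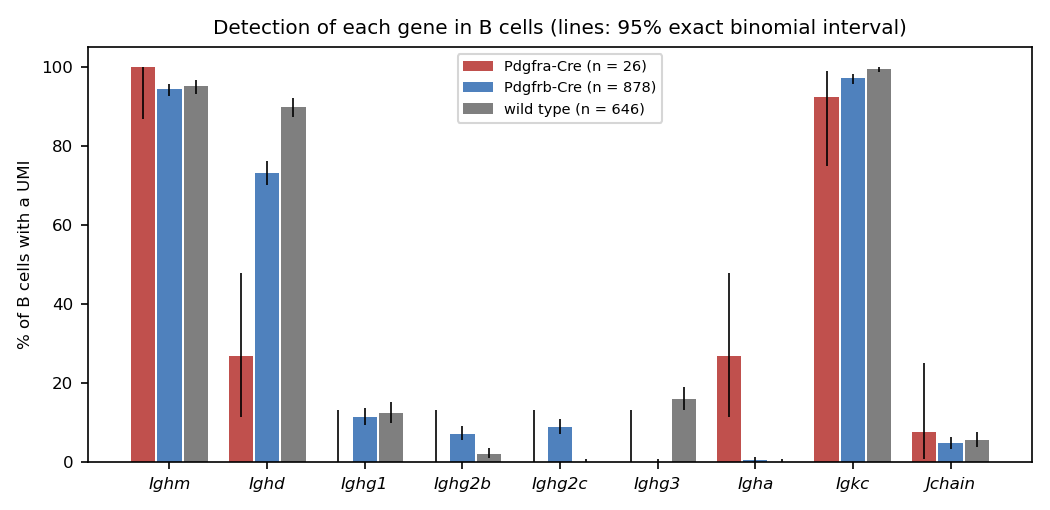
Share of B cells with at least 1 UMI of each member (bars from 0, y axis in percent) in the Pdgfra-Cre, Pdgfrb-Cre and wild-type libraries; lines are exact 95% binomial intervals. Ighd stands at 26.9% in Pdgfra-Cre, 73.2% in Pdgfrb-Cre and 89.9% in wild type, and Ighg3 at 16.1% in wild type but under 1% in Pdgfrb-Cre and at 0% in Pdgfra-Cre.

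Within the Pdgfra-Cre B cells, both divisions were low in Ighd. The 13 cells with Xist and no Y-linked UMI held 5 Ighd UMIs (32.9 CPM), and the other 13 held 8 (129 CPM). Ighm was at 2501 CPM in the first and 3950 CPM in the second division. Without the Xist-bearing cells, the log2 ratio of Ighm in Pdgfra-Cre to wild-type B cells was 1.30, past 2-fold, in place of 0.87. Of the B-1 type genes, Zbtb32 was at 125 CPM (75.3 to 195, 19 UMIs) in the Xist-bearing cells and 16.1 CPM (0.408 to 89.8, 1 UMI) in the other cells. Bhlhe41 was at 72.4 and 64.5 CPM and Cd9 at 85.6 and 64.5 CPM in the same divisions, with overlapping intervals.

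The kappa light chain gene Igkc pairs with any heavy chain, and most B cells of all 3 libraries carried it. Its level was 7081 CPM in Pdgfra-Cre, 4223 CPM in Pdgfrb-Cre and 6109 CPM in wild-type B cells. The ratio to wild type was 1.16 (1.10 to 1.22) in Pdgfra-Cre and 0.691 (0.676 to 0.707) in Pdgfrb-Cre B cells, in neither case past 2-fold. An Igkc UMI was found in 92.3% of Pdgfra-Cre, 97% of Pdgfrb-Cre and 99.5% of wild-type B cells, with medians of 33 UMIs in Pdgfra-Cre, 13 UMIs in Pdgfrb-Cre and 24 UMIs in wild type. Lambda constant genes, the alternative light chains, took 12.4% of the light chain constant UMIs of B cells in Pdgfra-Cre, 12.9% in Pdgfrb-Cre and 22.8% in wild type. Of them, Iglc2 was at 257 CPM in Pdgfra-Cre, 414 CPM in Pdgfrb-Cre and 1153 CPM in wild-type B cells, and Iglc3 at 393 CPM in Pdgfra-Cre, 92.0 CPM in Pdgfrb-Cre and 485 CPM in wild type.

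Ighg3 encodes IgG3, the gamma isotype most associated with responses that need no T cell help. Its level was 0 CPM in Pdgfra-Cre, 0.860 CPM (3 UMIs) in Pdgfrb-Cre and 53.8 CPM (45.4 to 63.3, 145 UMIs) in wild-type B cells. The Pdgfrb-Cre level was 62.6-fold lower (21.0 to 307, log2 ratio −2.55). Against wild type it was at least 3.84-fold lower in Pdgfra-Cre B cells, taking a floor of 3 UMIs over the group. The wild-type UMIs were spread over 104 of 646 B cells, 75 of which had a single UMI and none more than 4. Nearly all of the 104 also carried Ighm (103 cells) and Ighd (100 cells), so they were not called as switched. The 16.1% of wild-type B cells with an Ighg3 UMI (13.3 to 19.2%, median depth 3716.5 UMIs) stood against 0.503% of other wild-type cells (median depth 2510 UMIs). After thinning the shares were 4.04% of wild-type B cells and 0.39% of other wild-type cells.

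Ighg1, the main IgG of T cell-dependent responses, was at 0 CPM in Pdgfra-Cre, 31.8 CPM in Pdgfrb-Cre and 50.8 CPM in wild-type B cells. In other cells it was at 0 CPM in Pdgfra-Cre, 17.8 CPM in Pdgfrb-Cre and 24.3 CPM in wild type. Most wild-type B cells with Ighg1 had a single UMI (64 of 80), and 5 had at least 5, with 16 at most. It had a UMI in 0% of B cells and 0% of other cells in Pdgfra-Cre, in 11.4% and 13.1% in Pdgfrb-Cre, and in 12.4% and 9.31% in wild type. After thinning it had one in 3.56% of B cells and 2.77% of other cells in Pdgfrb-Cre, and in 3.89% and 3.45% in wild type. Ighg2c, the IgG2 gene of C57BL/6-type heavy chain loci, had a UMI in 9.0% of Pdgfrb-Cre B cells and 10.6% of other Pdgfrb-Cre cells. In wild-type B cells it had 1 UMI in all. Ighg2b was at 0 CPM in Pdgfra-Cre, 33.3 CPM in Pdgfrb-Cre and 11.1 CPM in wild-type B cells, with a UMI in 7.18% of B cells and 6.94% of other cells in Pdgfrb-Cre and in 2.17% and 0.906% in wild type. The wild-type level lies below the Pdgfra-Cre floor of 14.0 CPM, so a difference of Ighg2b between these libraries was not detectable at this depth, although it counts as lower under the 2-fold rule.

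Igha encodes IgA, the antibody of mucosal surfaces, and its RNA was rare. Its level was 56.1 CPM (29.0 to 98.0, 12 UMIs) in Pdgfra-Cre, 5.73 CPM (20 UMIs) in Pdgfrb-Cre and 0.371 CPM (1 UMI) in wild-type B cells. In Pdgfrb-Cre B cells 16 of the 20 UMIs came from 1 cell. In Pdgfra-Cre B cells they came from 7 cells, 4 of them with a single UMI and none with more than 4. All 7 also carried Ighm, and 6 of the 7 were among the Xist-bearing cells. Igha was at 0 CPM in other Pdgfra-Cre cells, where the floor is 0.256 CPM.

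**Figure D2:**
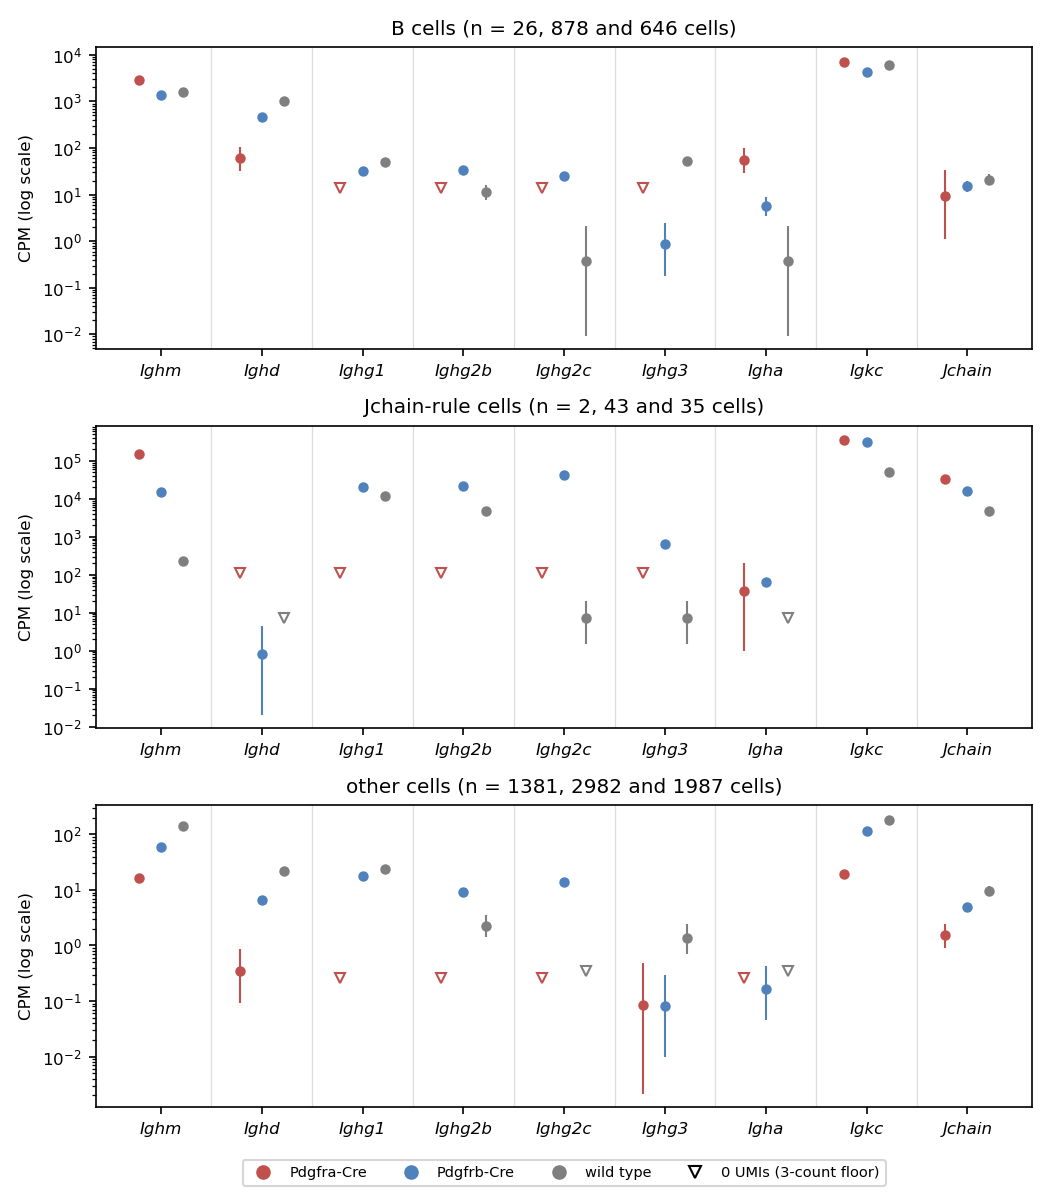
Level of each member (y axis, CPM over summed UMIs, log scale) in B cells, Jchain-rule cells and other cells (panels from top to bottom) of the Pdgfra-Cre, Pdgfrb-Cre and wild-type libraries; lines are exact 95% Poisson intervals, and open triangles mark groups with 0 UMIs at the level of 3 UMIs. Ighd in B cells stands at 60.8 CPM in Pdgfra-Cre, 462 CPM in Pdgfrb-Cre and 1017 CPM in wild type, and 3 of the 4 gamma genes are open triangles in all panels for Pdgfra-Cre.

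Counted over the members, 8 of the 9 passed the 10 CPM filter in Pdgfra-Cre or wild-type B cells. Of these, Igha was higher and Ighd, Ighg1, Ighg2b and Ighg3 were lower, beside a background of 9.29% of all 7600 genes higher and 9.8% lower. In Pdgfrb-Cre against wild-type B cells, 8 members passed, of which Ighg2b and Ighg2c were higher and Ighd and Ighg3 lower, beside 4.98% and 3.61% of all 7303 genes. The median log2 ratio of the members that passed was −0.87 in Pdgfra-Cre, beside 0.08 over all genes, and −0.42 in Pdgfrb-Cre, beside −0.03. A member that passed only through the library where it is high had to differ, so these counts are a description. Pdgfrb-Cre B cells held 33.3 CPM of Ighg2b and 24.9 CPM of Ighg2c, against 9.13 and 14.0 CPM in other Pdgfrb-Cre cells, and what part of the B cell level is free RNA was not tested.

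A cell was assigned an isotype by its heavy chain constant gene with the most UMIs, at least 2, with Ighm and Ighd taken as 1 unswitched class. Nearly all B cells were unswitched: 26 of 26 called cells in Pdgfra-Cre (100%, 86.8 to 100%), 814 of 827 in Pdgfrb-Cre (98.4%, 97.3 to 99.2%) and 606 of 619 in wild type (97.9%, 96.4 to 98.9%). The intervals overlap, and no difference in the unswitched share was detectable at these cell numbers. Switched B cells numbered 0 in Pdgfra-Cre. The 13 in Pdgfrb-Cre were 7 Ighg2b, 3 Ighg2c, 1 Ighg1, 1 Ighg3 and 1 Igha cells. The 13 in wild type were 11 Ighg1 and 2 Ighg2b cells.

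The Jchain-rule cells were, in contrast, mostly switched in 2 of the libraries. Both Pdgfra-Cre cells were Ighm cells. Of the 43 Pdgfrb-Cre cells, 8 were called unswitched, 11 Ighg1, 10 Ighg2b, 13 Ighg2c and 1 Ighg3, so that 81.4% were switched. Of 30 called wild-type cells, 2 were unswitched, 27 Ighg1 and 1 Ighg2b (93.3% switched), and 5 more were uncalled. The gamma calls were thus spread over 4 genes in the Pdgfrb-Cre library and almost limited to Ighg1 in the wild-type library, where no cell was called Ighg2c. The rule cells compared here are unlike in form, as defined below. Of the 27 wild-type Ighg1 calls, 2 were high, 9 small and 16 low cells, while 36 of the 43 Pdgfrb-Cre cells were high. Wild type had only 3 high cells, too few to compare the isotypes of like cells.

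**Figure D3:**
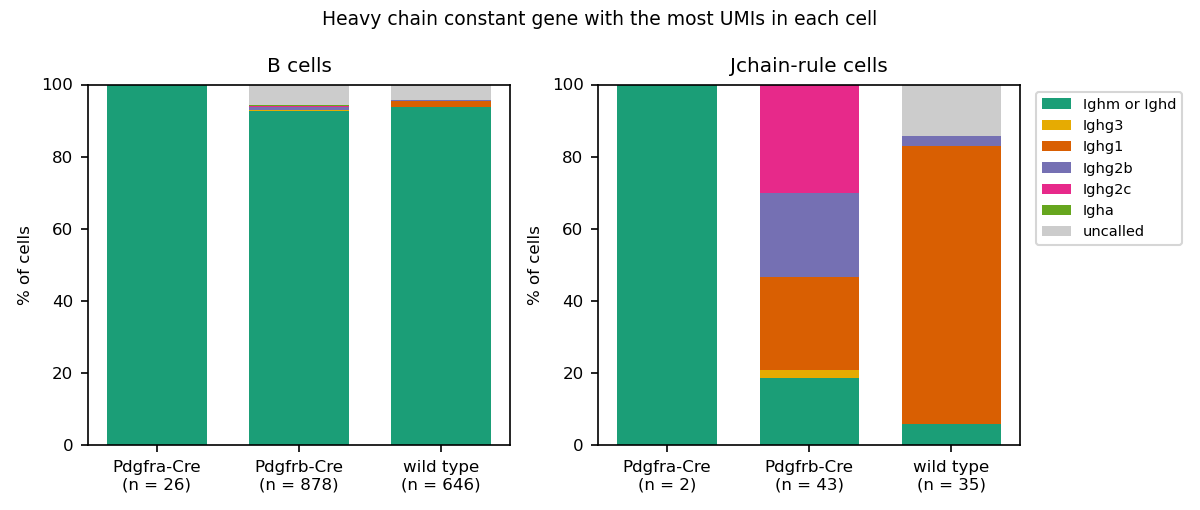
Isotype calls of B cells (left) and Jchain-rule cells (right) as stacked bars in percent of all cells of the group, uncalled cells in grey, for the Pdgfra-Cre, Pdgfrb-Cre and wild-type libraries. B cells are nearly all Ighm or Ighd cells in each library, while the Jchain-rule cells hold 13 Ighg2c cells in Pdgfrb-Cre and 0 in wild type.

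The Jchain-rule cells fell into forms that differ in how much of their RNA was immunoglobulin; the limits used here were chosen after the values had been seen. High cells had at least 5% of UMIs in the 9 members and were not small. Small cells also had at least 5%, but under 2500 UMIs in all and a B marker sum under 4. Low cells had under 5% of UMIs in members. The Pdgfra-Cre library had 1 high and 1 small cell, the Pdgfrb-Cre library 36 high and 7 low cells, and the wild-type library 3 high, 9 small and 23 low cells.

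The 36 high Pdgfrb-Cre cells gave 9.48% to 71.5% of their UMIs to members, with a median of 47.4%. They were large, at 11723 to 60863 UMIs, and 35 of the 36 had an Sdc1 UMI. Each was dominated by a single heavy chain gene, which took 96.2% to 100% of its heavy chain UMIs. Ighg2c led in 13 cells with 1895 to 7401 UMIs, Ighg1 in 9 cells with 773 to 7744, Ighg2b in 7 cells with 1757 to 7439, Ighm in 6 cells with 1616 to 5035, and Ighg3 in 1 cell with 795. Jchain, which the rule fixes at 5 or more, ran from 12 to 1756 UMIs with a median of 415.5. At least 5 UMIs of T cell markers were found in 3 of them.

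The 3 high wild-type cells gave 10.9%, 54.9% and 61.3% of their UMIs to members, and led with Ighg1 in 2 cells and Ighg2b in 1. Nearly all the wild-type Ighg2b of the rule came from that cell, with 2074 of 2075 UMIs. The single high Pdgfra-Cre cell gave 54.5% of its UMIs to members, with 3532 Ighm, 8828 Igkc and 847 Jchain UMIs. The small Pdgfra-Cre cell had 405 Ighm, 567 Igkc and 28 Jchain UMIs among 2328 in all, which is 43.0%.

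The 9 small wild-type cells had 1109 to 2168 UMIs, of which 14.4% to 35.2% were members. All were called Ighg1, with a narrow range of 48.4 to 59.3 Ighg1 UMIs and 10.8 to 18.4 Jchain UMIs per 100 Igkc UMIs. None had an Sdc1 UMI, but at their depth an absent UMI says little. Their B marker sums were 0 or 1, and a sum under 4 is part of their definition. Summed over Sdc1, Mzb1, Xbp1, Derl3, Tnfrsf17 and Prdm1, their median per cell was 4331 CPM. It was 5504 CPM in the high and 810 CPM in the low wild-type cells. The small cells held 21.9% of the Ighg1 UMIs of the wild-type rule cells, against 71.1% in the high and 6.99% in the low cells. Of barcodes with at least 5 Jchain UMIs, 0 in Pdgfra-Cre, 1 in Pdgfrb-Cre and 19 in wild type had failed the filters on cells.

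The low cells had another set of transcripts. The 7 in Pdgfrb-Cre had 0.429% to 1.38% of UMIs in members and the 23 in wild type 0.491% to 1.39%. All of these cells carried UMIs of the germinal centre list, and Sdc1 was at 0 in both libraries. Germinal centres are the sites of lymphoid tissue where B cells mutate and switch their antibody genes. The low wild-type cells were called Ighg1 in 16 cases, unswitched in 2 and uncalled in 5, and the low Pdgfrb-Cre cells Ighg2b in 3 cases and Ighg1 and unswitched in 2 each.

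**Figure D4:**
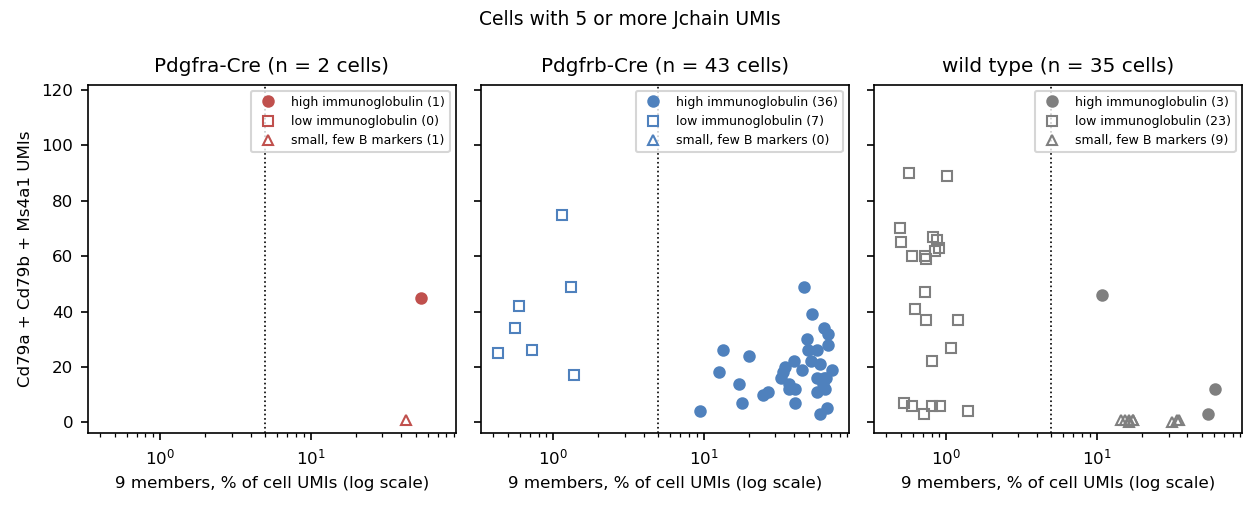
Each Jchain-rule cell of the Pdgfra-Cre, Pdgfrb-Cre and wild-type libraries (panels from left to right) by the percent of its UMIs in the 9 members (x axis, log scale) and its summed Cd79a, Cd79b and Ms4a1 UMIs (y axis); the dotted line is at 5%, and marks give the form. The 36 high Pdgfrb-Cre cells lie at 9.48% or more, whereas in wild type 23 of 35 cells lie at or below 1.39% and 9 small cells lie along the bottom.

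These forms set the summed levels. Over all Jchain-rule cells, Ighm was at 148331 CPM in Pdgfra-Cre, 14991 CPM in Pdgfrb-Cre and 236 CPM in wild type. Ighg2c was at 0 CPM in Pdgfra-Cre, 42109 CPM in Pdgfrb-Cre and 7.08 CPM in wild type, the wild-type value being 3 UMIs in 1 cell. Ighg1 was at 0 CPM in Pdgfra-Cre, 19994 CPM in Pdgfrb-Cre and 11881 CPM in wild type, and Ighg2b at 0 CPM in Pdgfra-Cre, 21386 CPM in Pdgfrb-Cre and 4897 CPM in wild type. No gamma UMI was found in the 2 Pdgfra-Cre cells, whose floor is 113 CPM. Igkc was at 353967 CPM in Pdgfra-Cre, 305268 CPM in Pdgfrb-Cre and 51335 CPM in wild type. Ighd, which plasma cells stop making, was at 0 CPM in Pdgfra-Cre, 0.82 CPM in Pdgfrb-Cre and 0 CPM in wild type.

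Ratios between rule cells were taken only for Pdgfrb-Cre against wild type, as Pdgfra-Cre had 2 such cells. Leaving out Jchain, which the rule fixes, 7 members passed the filter. Of these, Ighm, Ighg2b, Ighg2c, Ighg3, Igha and Igkc were higher in Pdgfrb-Cre and none was lower, beside 4.02% of all 6991 genes higher and 35.9% lower. The median log2 ratio was 2.87 for the members that passed and −0.78 for all genes. Ighg2c, Ighg3 and Igha passed the filter only through Pdgfrb-Cre, where they are high, and the median is the value of Igha. These members had to differ, so the count and the median are a description. Ighm was 63.5-fold higher (52.2 to 78.1, log2 ratio 5.93), Ighg2b 4.37-fold higher (log2 ratio 2.12) and Igkc 5.95-fold higher (log2 ratio 2.57). Ighg2c had a ratio of 5947 (2035 to 28838) over 3 wild-type UMIs. For Ighg3 (log2 ratio 5.29) 795 of the 800 Pdgfrb-Cre UMIs came from 1 cell, and for Igha, at least 8.92-fold higher, 69 of 77 came from 1 cell whose leading heavy chain gene was Ighg2c. Ighg1 had a log2 ratio of 0.75, not past 2-fold, and it ran from −0.79 to 2.06 across the processing alternatives, so it has no stable direction. Among the high cells alone, Igkc had a log2 ratio of 0.99 and Ighg2b one of 0.29, no longer past 2-fold.

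Variable gene segments were not part of the rule. In both Pdgfra-Cre rule cells the heavy and light variable genes with the most UMIs were Ighv11-2 and Igkv14-126, a pairing known from B-1a cells that bind phosphatidylcholine. In the Pdgfra-Cre B cells Ighv11-2 had a UMI in 3 and Igkv14-126 in 4 of 26 cells, and in 0 of the 1381 other Pdgfra-Cre cells. Among Pdgfrb-Cre cells each was found in 1 rule cell, while 0 of 878 B cells had Ighv11-2 and 1 had Igkv14-126. In the wild-type library neither had a UMI in any cell class. The 36 high Pdgfrb-Cre cells had 23 different leading heavy variable genes and 14 leading light variable genes. The leading light gene was Iglv1, a lambda segment, in 20 of the 36, although lambda made up 2.34% of the light chain constant UMIs of all Pdgfrb-Cre rule cells, so the leading light segment need not belong to the cell's own chain and no count of antibodies is drawn from it. Variable segments lie far from the tagged 3' end, so their UMIs were few beside those of the constant genes.

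In cells of other types, immunoglobulin RNA was present in every library. The 9 members summed to 38.0 CPM (34.6 to 41.7) in Pdgfra-Cre, 229 CPM (223 to 235) in Pdgfrb-Cre and 385 CPM (372 to 398) in wild type. At least 1 member UMI was found in 20.9% of Pdgfra-Cre, 69.1% of Pdgfrb-Cre and 62.6% of wild-type other cells, at median depths of 7585 UMIs in Pdgfra-Cre, 6681 UMIs in Pdgfrb-Cre and 2510 UMIs in wild type. Cells without any UMI of the 3 B markers gave 38.5 CPM in Pdgfra-Cre (1358 cells), 174 CPM in Pdgfrb-Cre (2800 cells) and 273 CPM in wild type (1588 cells). Part of the sum in Pdgfrb-Cre and wild type thus lay in cells with 1 to 3 B marker UMIs, which gave 17.1 CPM in Pdgfra-Cre (23 cells), 1048 CPM in Pdgfrb-Cre (182 cells) and 897 CPM in wild type (399 cells). The libraries stood in the same order as in their shares of B cells and of Jchain-rule cells, but 3 libraries are too few to test a relation.

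By gene, Ighm in other cells was at 16.6 CPM in Pdgfra-Cre, 58.7 CPM in Pdgfrb-Cre and 142 CPM in wild type. Igkc was at 19.4 CPM in Pdgfra-Cre, 118 CPM in Pdgfrb-Cre and 183 CPM in wild type, and Ighd at 0.341 CPM in Pdgfra-Cre, 6.48 CPM in Pdgfrb-Cre and 21.9 CPM in wild type. All 3 genes were thus lowest in Pdgfra-Cre and highest in wild type, as was Jchain at 1.53 CPM in Pdgfra-Cre, 4.87 CPM in Pdgfrb-Cre and 9.70 CPM in wild type. Ighg1 was at 0 CPM in Pdgfra-Cre, 17.8 CPM in Pdgfrb-Cre and 24.3 CPM in wild type. Ighg2c was at 0 CPM in Pdgfra-Cre, 14.0 CPM in Pdgfrb-Cre and 0 CPM in wild type, and Ighg2b at 0 CPM in Pdgfra-Cre, 9.13 CPM in Pdgfrb-Cre and 2.28 CPM in wild type. In other Pdgfra-Cre cells the only gamma UMI was 1 of Ighg3.

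Against wild type, 4 members passed the filter in other cells of Pdgfra-Cre and all 4 were lower, beside 3.7% of all 9503 genes. Ighm was 8.53-fold lower (7.33 to 9.97), Igkc 9.43-fold lower (8.20 to 10.9), Ighd 64.3-fold lower and Ighg1 at least 95.1-fold lower. In Pdgfrb-Cre, 5 passed, of which Ighg2c was higher (at least 41.0-fold) and Ighm lower (2.42-fold, 2.24 to 2.61, log2 ratio −1.14), beside 4.24% of all 8877 genes higher and 2.82% lower. The median log2 ratio of members that passed was −2.14 in Pdgfra-Cre, beside 0.08 over all genes, and −0.60 in Pdgfrb-Cre, beside −0.10. In the Pdgfra-Cre comparison Ighd and Ighg1 passed the filter only through wild type, where they are high. In the Pdgfrb-Cre comparison Ighg2c passed only through Pdgfrb-Cre. These members had to differ, so the counts and medians are a description.

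The members were not spread evenly over cell types. In stromal cells Ighm was at 6.61 CPM in Pdgfra-Cre, 6.80 CPM in Pdgfrb-Cre and 75.0 CPM in wild type, and in endothelial cells at 4.10 CPM in Pdgfra-Cre, 7.49 CPM in Pdgfrb-Cre and 36.3 CPM in wild type. In macrophages it was at 137 CPM in Pdgfra-Cre, 120 CPM in Pdgfrb-Cre and 263 CPM in wild type, above the stromal level of the same library in all 3. T cells had 25.5 CPM in Pdgfra-Cre, 57.0 CPM in Pdgfrb-Cre and 168 CPM in wild type. Igkc in Pdgfra-Cre was at 25.7 CPM in macrophages and 14.7 CPM in stromal cells, in Pdgfrb-Cre at 54.8 and 61.2 CPM, and in wild type at 146 and 174 CPM. Dendritic cells of Pdgfrb-Cre, at 146 CPM of Ighm, were above the macrophages of that library. Ighm UMIs per 100 Igkc UMIs numbered, in macrophages, 533 in Pdgfra-Cre, 219 in Pdgfrb-Cre and 181 in wild type. In stromal cells the proportion was 45.0 in Pdgfra-Cre, 11.1 in Pdgfrb-Cre and 43.0 in wild type. It was 41.3 in Pdgfra-Cre, 31.7 in Pdgfrb-Cre and 26.1 in wild type among B cells and 41.9 in Pdgfra-Cre, 4.91 in Pdgfrb-Cre and 0.46 in wild type among Jchain-rule cells. In each library the macrophage proportion was above that of the B cells and of the Jchain-rule cells. In wild type it was itself below that of T cells (234), NK cells (291) and dendritic cells (219), while in Pdgfrb-Cre it was above that of T cells (60.3), NK cells (50) and dendritic cells (53.3). In Pdgfra-Cre the macrophage proportion, over 15 Igkc UMIs, was above that of T cells (60.9) and below that of NK cells (700, over 1 Igkc UMI). The Pdgfra-Cre dendritic cells had 0 Igkc UMIs. Where this Ighm came from was not tested.

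For Ighg1, the stromal proportion stood above that of B cells in Pdgfrb-Cre and wild type. Per 100 Igkc UMIs, Ighg1 in Pdgfrb-Cre was at 27.1 in stromal cells, 6.55 in Jchain-rule cells and 0.75 in B cells, and in wild type at 15.7, 23.1 and 0.83. Jchain per 100 Igkc UMIs in stromal cells was at 11.0 in Pdgfra-Cre, 5.42 in Pdgfrb-Cre and 4.65 in wild type; the rule sets its proportion in B cells and Jchain-rule cells. Over T, NK, macrophage, dendritic, endothelial, stromal and mural cells, where a library had at least 20 of them, Ighg1 lay within 14.6 to 24.5 CPM in Pdgfrb-Cre and 16.0 to 27.4 CPM in wild type, and at 0 CPM in Pdgfra-Cre. Ighg2c lay within 10.8 to 25.7 CPM over the same Pdgfrb-Cre types, and at 0 CPM in those of the other libraries.

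**Figure D5:**
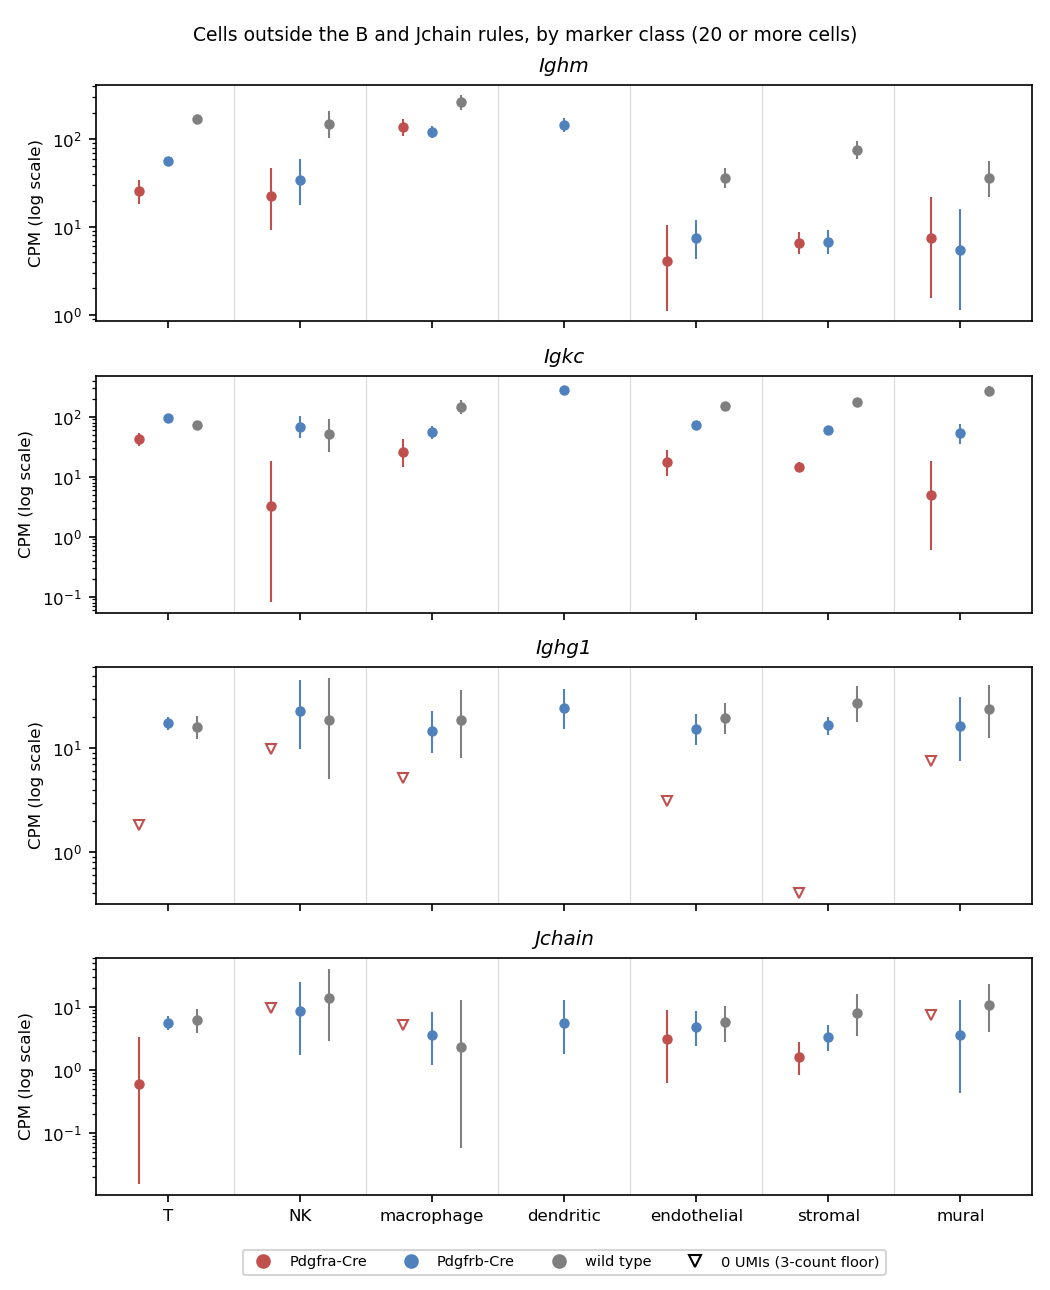
Level of Ighm, Igkc, Ighg1 and Jchain (y axes, CPM over summed UMIs, log scale) in marker classes of at least 20 cells outside the B cell and Jchain rules, in the Pdgfra-Cre, Pdgfrb-Cre and wild-type libraries; lines are exact 95% Poisson intervals, and open triangles mark 0 UMIs at the level of 3 UMIs. Ighm stands higher in macrophages (137 CPM in Pdgfra-Cre, 120 CPM in Pdgfrb-Cre and 263 CPM in wild type) than in stromal cells (6.61 CPM in Pdgfra-Cre, 6.80 CPM in Pdgfrb-Cre and 75.0 CPM in wild type), while Ighg1 varies little between classes of a library.

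Of all member UMIs in a library, B cells held 12.9% in Pdgfra-Cre, 3.96% in Pdgfrb-Cre and 41.0% in wild type. The Jchain-rule cells held 84.5% in Pdgfra-Cre, 95.01% in Pdgfrb-Cre and 53.2% in wild type, and other cells 2.65% in Pdgfra-Cre, 1.03% in Pdgfrb-Cre and 5.78% in wild type. The member totals were 16821 UMIs in Pdgfra-Cre, 539904 in Pdgfrb-Cre and 58247 in wild type, so that 43 cells of the Pdgfrb-Cre library carried most of the immunoglobulin RNA read in the study.

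Other genes of the same pathways were read from lists drawn up with earlier results of these data known. In Pdgfra-Cre against wild-type B cells, 7 of 13 plasma cell programme genes that passed were higher and none lower (median log2 ratio 1.05), beside 9.29% of all genes higher and 9.8% lower, which is the background for each list in these B cells. They include Mzb1, at 771 CPM in Pdgfra-Cre and 368 CPM in wild type, and Hsp90b1, a chaperone of the endoplasmic reticulum, at 393 CPM in Pdgfra-Cre and 184 CPM in wild type. Prdm1 (32.7 CPM in Pdgfra-Cre, 3.34 CPM in wild type), Derl3 (32.7 and 0.371 CPM) and Tnfrsf17 (14.0 and 0 CPM) passed the filter only through Pdgfra-Cre. They had to differ, so this count is a description. The 7 Derl3 UMIs lay in 1 cell, and so did the 3 Tnfrsf17 UMIs. All 4 B-1 type genes that passed were higher: Cd9 at 79.5 CPM in Pdgfra-Cre and 13.7 CPM in wild type, Bhlhe41 at 70.1 CPM in Pdgfra-Cre and 7.79 CPM in wild type, Zbtb32 at 93.5 CPM in Pdgfra-Cre and 0.371 CPM in wild type, and Spn at 18.7 CPM in Pdgfra-Cre and 2.97 CPM in wild type. These are a tetraspanin, a pair of transcription factors of B-1 cells and the sialoprotein CD43, in that order. Bhlhe41, Zbtb32 and Spn passed the filter only through the Pdgfra-Cre library, where they are high, so they had to differ and the count is a description. Cd5, the surface marker of B-1a cells, had 0 UMIs in Pdgfra-Cre B cells.

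Of 13 B cell receptor and identity genes, 5 were lower in Pdgfra-Cre B cells and none higher, with Ebf1 at 883 CPM in Pdgfra-Cre and 2037 CPM in wild type and Fcer2a, the IgE receptor CD23 of follicular B cells, at 4.67 CPM in Pdgfra-Cre and 406 CPM in wild type. Marginal zone type genes gave 2 lower of 4, with Cr2, the complement receptor CD21, at 4.67 CPM in Pdgfra-Cre and 283 CPM in wild type. Fcer2a and Cr2 passed the filter only through the wild-type library, where they are high, so they had to differ and these counts are a description. Among receptors for antibodies, 1 of 6 was higher and 3 were lower: Fcmr, the IgM receptor, was at 145 CPM in Pdgfra-Cre and 531 CPM in wild type, and Fcgr2b, the inhibitory IgG receptor, at 145 CPM in Pdgfra-Cre and 48.6 CPM in wild type. Germinal centre genes gave 0 of 4 in either direction. Of 3 other constant genes that passed, Iglc1 was higher (355 CPM in Pdgfra-Cre, 165 CPM in wild type) and Iglc2 lower. Without the Xist-bearing cells, 13 Pdgfra-Cre B cells remained and the background grew to 17.2% of genes higher and 19.7% lower. On these cells, 3 of 10 plasma cell programme genes were higher and 1 lower, 4 of 4 B-1 type genes were higher, 3 of 13 identity genes were lower, and 2 of 4 marginal zone type genes were lower and 1 higher. Antibody receptors gave 1 higher and 2 lower of 5, germinal centre genes 1 higher and 2 lower of 5, and other constant genes 0 of 3. In these 13 cells 1 UMI is 16.1 CPM and passes the 10 CPM filter by itself. Of the B-1 type genes, Zbtb32 rests there on 1 UMI, and Bhlhe41 and Cd9 rest on 4 UMIs each. The counts without the Xist-bearing cells are therefore a description.

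Fewer of these genes passed 2-fold in Pdgfrb-Cre against wild-type B cells, where 4.98% of all genes were higher and 3.61% lower. None of 10 plasma cell programme genes and none of 2 B-1 type genes passed 2-fold. Of 13 identity genes 2 were lower, of 4 germinal centre genes 1 was higher (Msh6, a mismatch repair gene, log2 ratio 1.01), and of 5 antibody receptors Pigr, which carries IgA and IgM across epithelia, was lower (log2 ratio −1.21). Marginal zone type genes gave Dtx1 higher (log2 ratio 1.09) and Cr2 lower (log2 ratio −1.50). Of 3 other constant genes, Iglc2 and Iglc3 were lower, with log2 ratios of −1.46 and −2.28.

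In Jchain-rule cells the lists followed the forms. Of 15 plasma cell programme genes 13 were higher in Pdgfrb-Cre than in wild type and none lower (median log2 ratio 1.84, beside −0.78 over all genes), among them Sec11c, a signal peptidase subunit (2.39), and Herpud1, of endoplasmic reticulum quality control (1.84). Over all genes 4.02% were higher and 35.9% lower, so lower genes are common in any list here. Of 13 B cell identity genes 12 were lower, and of 10 germinal centre genes 8 were lower, including Rgs13, a regulator of chemokine signalling in germinal centre cells (log2 ratio −3.15). In other Pdgfra-Cre cells, 2 of 2 other constant genes, 2 of 5 identity genes and 1 of 4 B-1 type genes were lower. Of 4 marginal zone type genes 2 were higher, and of 4 antibody receptors 1. Plasma cell programme genes gave 2 higher and 2 lower of 13. Over all genes 9.0% were higher and 3.7% lower. In other Pdgfrb-Cre cells the only call was 1 of 2 other constant genes lower, beside 2.82% of all genes. Iglc2 and Iglc3 passed the filter only through wild type, so these counts are a description.

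The genes most like the members were sought over 29 sums of cell classes by library, among 7864 genes outside the immunoglobulin families. For Ighm they were Irf4 (Pearson r 0.84), Cd79b (0.83), Ero1lb (0.83), Blnk (0.81) and Tnfrsf13b (0.81). For Igkc they were Pou2af1 (0.94), Mzb1 (0.93), Cd79b (0.91), Vpreb3 (0.89) and Cd79a (0.88). For Jchain they were Nuggc (0.97), Eaf2 (0.95), Mef2b (0.89), Derl3 (0.89) and Txndc11 (0.88). These correlations are across cell classes of 3 libraries, which share depth and free RNA, and the B and Jchain-rule classes were defined by some of the genes involved, so they serve as a description.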

How the data were processed

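Droplet 3' single-cell libraries were made by the submitters from dead-cell-depleted and red-blood-cell-depleted stromal and vascular cells, per the labels' protocols; Cell Ranger 3.1.0, STAR 2.6 and build mm10 are named in the submitters' processing notes. The deposited matrices hold raw UMI counts per gene and barcode. The matrices held 2310 (Pdgfra-Cre), 4355 (Pdgfrb-Cre) and 4124 (wild type) barcodes with 14438471, 30826733 and 13352288 UMIs.

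Barcodes were kept as cells if they had 500 or more genes and no more than 15% of UMIs from mitochondrial genes. Scrublet scores (scanpy 1.11.5) ranked doublets, and the top 0.8% per 1000 cells were left out (16, 130 and 60 cells); Scrublet's own call marked 7, 38 and 15. B cells had a Cd79a, Cd79b and Ms4a1 sum of at least 4 UMIs and under 5 Jchain UMIs; cells with at least 5 Jchain UMIs formed their own class whatever that sum. Isotypes needed at least 2 UMIs. Classes of other cells needed at least 4 UMIs of their markers. CPM were computed over summed UMIs per class and library, and ratios with scipy 1.17.1; all genes of at least 10 CPM in either library gave the background. Steps were tested on simulated counts. The 9 members are all named, and of each list the counts past 2-fold and genes of most UMIs. Members and lists were chosen with earlier results of these data known; the Xist division and the forms of Jchain-rule cells were chosen after seeing the values. Alternatives were filters, thresholds, thinning to 1000 UMIs, means over cells and the CPM added. A few genes not named by the rule (Iglc3, Dtx1, Cr2, Rgs13, Sdc1, Spn, the variable genes and the like) were chosen after their values were seen.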

Additional observations from a re-analysis of the deposited data

Results flagged for a closer look

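A few members moved in opposite directions between comparisons with the same wild-type library; none of these differences between comparisons was tested. Ighg2b in B cells had a log2 ratio of −1.08 in Pdgfra-Cre and 1.03 in Pdgfrb-Cre over wild type, but the Pdgfra-Cre value rests on 0 UMIs and the wild-type level lies below its floor. Ighg3 in Pdgfrb-Cre over wild type had a log2 ratio of −2.55 in B cells and 5.29 in Jchain-rule cells, where 795 of 800 UMIs came from 1 cell. Ighm in Pdgfrb-Cre over wild type had a log2 ratio of −1.14 in other cells and 5.93 in Jchain-rule cells, where wild type has few high cells.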

How the results depend on the processing

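No paired analysis was possible because each genotype has 1 library. Of 21 member ratios past 2-fold, 12 stayed past it under every alternative run, 9 did not under at least 1, and 0 reversed; Ighg2b in B cells was lost most often (6 settings in Pdgfrb-Cre, 4 in Pdgfra-Cre), and Ighm in other Pdgfrb-Cre cells in 3. Each summary value was counted once per alternative setting. Of these pairs of value and setting, 158 held and 34 moved under alternatives of filters and thresholds. Under those added after seeing the data, 8 held and 4 moved. Apart from what each setting itself leaves out, the cause was not tested.

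Under a stricter filter (1000 or more genes, no more than 10% of UMIs from mitochondrial genes), B cell shares were 20.9% (Pdgfrb-Cre) and 33.9% (wild type), and other-cell member levels 33.6 CPM in Pdgfra-Cre, 200.2 CPM in Pdgfrb-Cre and 266 CPM in wild type. With every barcode, the wild-type B cell share was 17.4%, and other-cell levels 299 CPM (Pdgfrb-Cre) and 539 CPM (wild type). With a B marker sum of 2, shares were 24.6% in Pdgfrb-Cre and 29.1% in wild type, and other-cell levels 183 CPM in Pdgfrb-Cre and 318 CPM in wild type. With a sum of 8, shares were 13.7% in Pdgfrb-Cre and 20.3% in wild type, the unswitched share in wild type 99.3%, other-cell levels 50.2 CPM in Pdgfra-Cre, 485 CPM in Pdgfrb-Cre and 558 CPM in wild type, and members past 2-fold in other Pdgfrb-Cre cells 1.

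Thinned to 1000 UMIs, B cell shares were 0.730% in Pdgfra-Cre, 6.66% in Pdgfrb-Cre and 13.0% in wild type, the unswitched Pdgfrb-Cre share 99.3% and the wild-type Jchain-rule share 0.485%. With 5 UMIs for an isotype, unswitched shares were 99.3% (Pdgfrb-Cre) and 99.1% (wild type). Other cells without B marker UMIs had 174 CPM (Pdgfrb-Cre) and 273 CPM (wild type). As means over cells, other-cell levels were 70.4 CPM in Pdgfra-Cre, 409 CPM in Pdgfrb-Cre and 751 CPM in wild type. With 50 CPM added, members past 2-fold were 2 in Pdgfrb-Cre B cells, 2 in other Pdgfra-Cre cells and 0 in other Pdgfrb-Cre cells. Added after seeing the data: without Xist-bearing cells, Pdgfra-Cre had a B cell share of 0.933% and a Jchain-rule share of 0%, and the wild-type Jchain-rule share was 0.450% with members at 5% or more, and 0.112% also without small barcodes. Cell number limits the Pdgfra-Cre B cell values, which rest on 26 cells with a floor of 14.0 CPM.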
